A study of Mus musculus with 18 samples.

Results

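Superoxide dismutases, catalase and glutathione peroxidases are the enzymes that dispose of superoxide and peroxides, and 7 of their genes were described here: Sod1, Sod2, Sod3, Cat, Gpx1, Gpx3 and Gpx4. They were chosen by name, as every probe set whose only gene symbol is one of these, which took 7 of the 12393 genes named on the array and 13 of its 22626 probe sets. Of the 13, 12 passed the filter on low signals and were tested. RNA was taken from 2 regions of the mouse nervous system, the oculomotor nucleus of the midbrain, whose motor neurons move the eyes, and the cervical spinal cord. Each region came from mice of a model of amyotrophic lateral sclerosis (ALS), called mutant in the labels, at 10 weeks and at 6 weeks, and from control mice at 10 weeks. The groups held 3 arrays each, but control spinal cord was described with 2, as explained below. Which mutation the mice carry, their strain, their sex and whether animals were pooled are not given in the sources used here, and no control of 6 weeks was among the samples.

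Superoxide, a by-product of respiration and of oxidases, is converted by superoxide dismutases to hydrogen peroxide, which catalase and glutathione peroxidases then break down. Sod1 is the copper and zinc enzyme of the cytosol, Sod2 the manganese enzyme of mitochondria, and Sod3 a secreted copper and zinc enzyme that binds the extracellular matrix. Catalase works in peroxisomes, Gpx1 in the cytosol and mitochondria, Gpx3 is secreted, and Gpx4 reduces lipid peroxides in membranes and guards cells against ferroptosis. The glutathione peroxidases named here carry selenocysteine and draw on glutathione. Mutations of human SOD1 cause some familial ALS and are used in mouse models, but probe sets made for mouse Sod1 need not read a human transgene.

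Signals are those of Affymetrix Microarray Suite, in arbitrary units, and a signal is compared between arrays for 1 probe set and never between probe sets. The first control spinal cord array was set aside, since its signals correlated with those of the other arrays over all probe sets at 0.0104 to 0.0143. Among the other 17 arrays it lay between 0.957 and 0.985, and their median signals lay between 207 and 226. The labels do not say that the arrays of a group come from separate animals, so p-values reflect the spread among these samples alone, which may be technical, and the small number of arrays limits precision. Differences are log2 differences with their standard errors from limma, a probe set is called when its Benjamini-Hochberg adjusted p over 13575 tested probe sets is below 0.05, and errors of mean signals are SD. In whole tissue, fewer cells of a type and less RNA per cell cannot be told apart.

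Between the regions, Gpx3 had about double the signal in the oculomotor nucleus, while Sod3, Cat and Gpx1 had lower signals there. These 4 genes were called in the regional difference averaged over the 3 conditions, Gpx3 as higher and the other 3 as lower, where 37.7% of all tested probe sets were called. Sod1, Sod2 and Gpx4 were not called in any regional comparison. No probe set of the 7 genes was called between genotypes or between ages, where few of all tested probe sets were called. Between genotypes these were 1.47% in the oculomotor nucleus and 0.0221% in the spinal cord, and between ages 0.0221% and 2.76%.

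**Figure D1:**
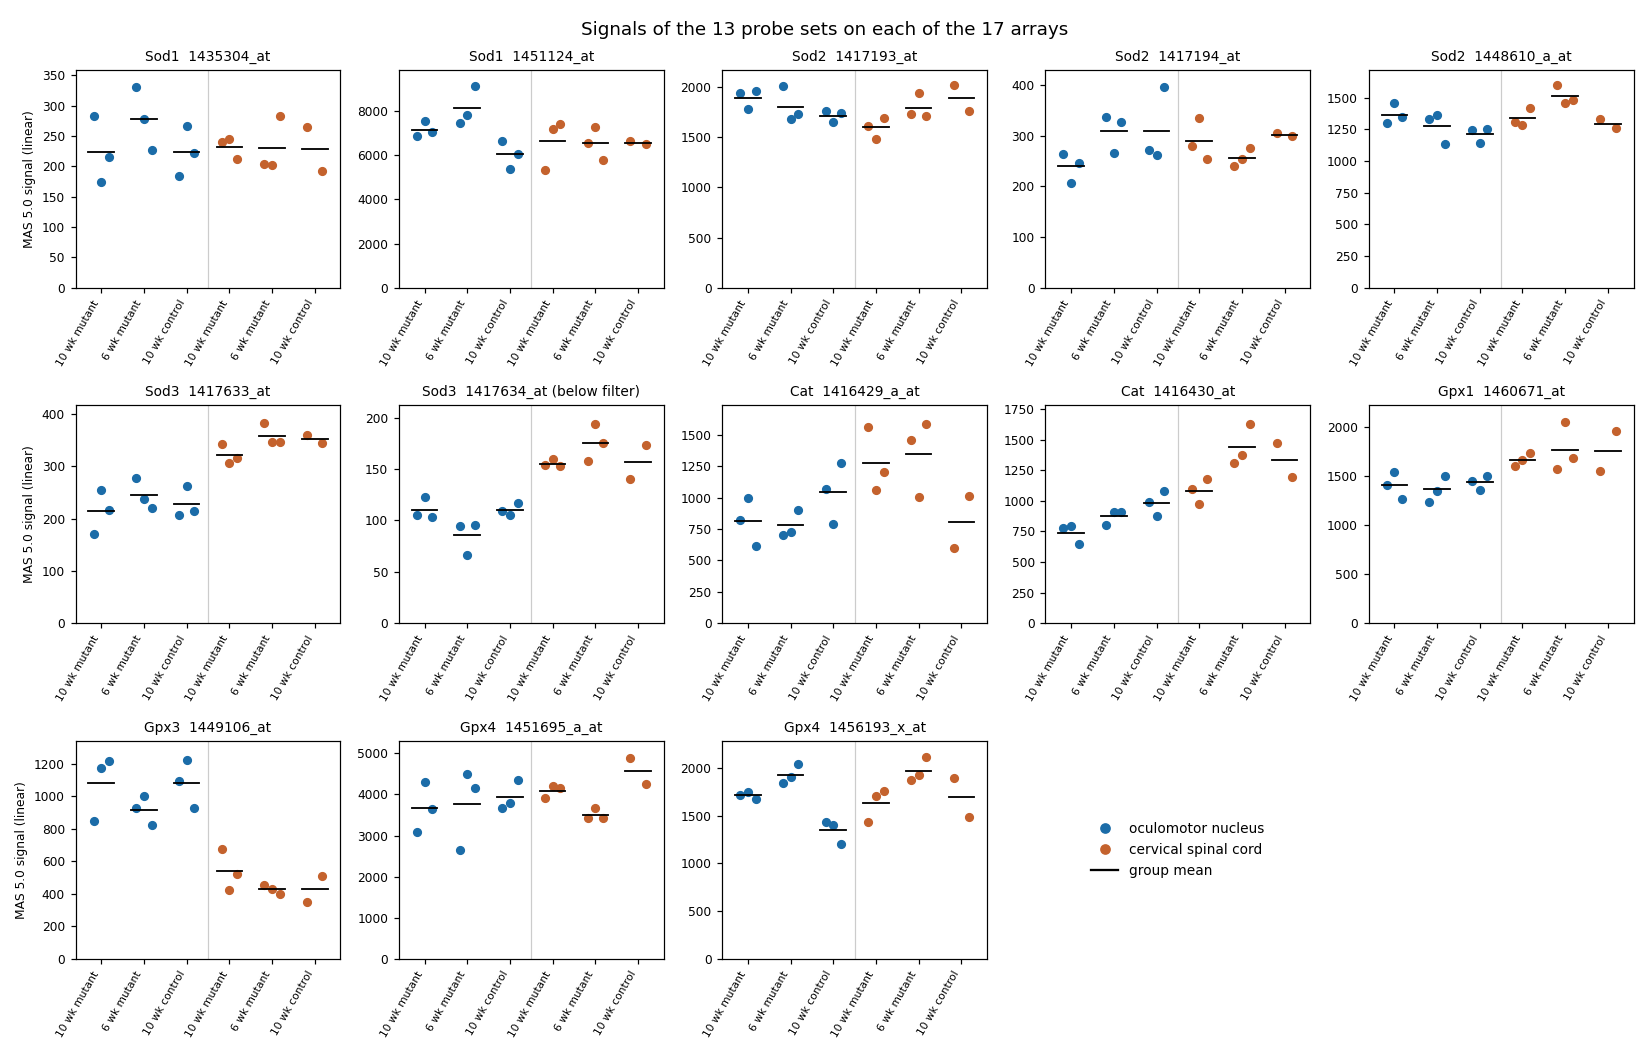
Signal of each of the 13 probe sets on each array (points) in the 6 groups, oculomotor nucleus in blue and spinal cord in orange, with a bar at each group mean; the vertical axis of every panel is the signal in arbitrary units on a linear scale. The 9 oculomotor nucleus arrays lie above the 8 spinal cord arrays for Gpx3 and below them for Sod3 and Gpx1.

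The superoxide dismutases differed in kind. For the secreted enzyme Sod3, probe set 1417633_at had signals of 171, 253.6 and 217 in 10-week mutant oculomotor nuclei, against 342.6, 305.6 and 316.3 in 10-week mutant spinal cords. In 6-week mutants they were 277.7, 236.7 and 219.6 in oculomotor nuclei, against 382.5, 346.9 and 346.3 in spinal cords, and in controls 206.4, 262.8 and 214.7, against 359.3 and 343.9. Each of the 9 oculomotor arrays (171 to 277.7) was below each of the 8 spinal cord arrays (305.6 to 382.5). The regional difference was -0.55 ± 0.14 in 10-week mutants (adjusted p = 0.00832), -0.51 ± 0.14 in 6-week mutants (adjusted p = 0.0107) and -0.58 ± 0.15 in controls (adjusted p = 0.0157). Averaged over the conditions it was -0.55 ± 0.08, or 1.46-fold lower in the oculomotor nucleus (adjusted p = 3.415e-05). The call in 10-week mutants was lost without their oculomotor replicate 1 (-0.41, adjusted p = 0.0590), and that in controls without control oculomotor replicate 1 (adjusted p = 0.0623), control spinal cord replicate 2 (adjusted p = 0.125) or control spinal cord replicate 3 (adjusted p = 0.0641).

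The other Sod3 probe set, 1417634_at, fell below the filter and was not tested, yet its arrays separated the regions in the same way. Its signals ran from 66.2 to 122.7 in oculomotor nuclei and from 140.4 to 193.9 in spinal cords. In a fit of every probe set, with no filter, its mean regional difference was -0.57 ± 0.09 (adjusted p = 0.000209). By condition that fit gave -0.41 in 10-week mutants (adjusted p = 0.0954), -0.87 in 6-week mutants (adjusted p = 0.00107) and -0.42 in controls (adjusted p = 0.177).

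The cytosolic enzyme Sod1 had similar signals in both regions. Probe set 1451124_at had 6889.8, 7571.4 and 7048.5 in 10-week mutant oculomotor nuclei, against 5345.3, 7204.9 and 7400.3 in 10-week mutant spinal cords. In 6-week mutants it had 7465.9, 7836 and 9135.2 in oculomotor nuclei, against 6542.8, 7281.5 and 5787.5 in spinal cords, so that the arrays of that age did not overlap. In controls it had 6661, 5399.1 and 6081.9 in oculomotor nuclei, against 6633.7 and 6492.6 in spinal cords. The regional difference was 0.12 ± 0.12 in 10-week mutants (adjusted p = 0.515), 0.32 ± 0.12 in 6-week mutants (adjusted p = 0.0612) and -0.12 ± 0.13 in controls (adjusted p = 0.611). In 6-week mutants the difference was called without oculomotor replicate 1 (0.38, adjusted p = 0.0496) or without spinal cord replicate 2 (0.40, adjusted p = 0.0401). The weaker Sod1 probe set, 1435304_at, ran from 173.8 to 330.9 in oculomotor nuclei and from 192 to 283.4 in spinal cords, and its regional differences lay between -0.07 and 0.25.

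The mitochondrial enzyme Sod2 has 3 probe sets, and the regions overlapped on each of them. Probe set 1417193_at ran from 1652.9 to 2010.9 in oculomotor nuclei and from 1486.4 to 2025.5 in spinal cords, with a regional difference of 0.24 ± 0.09 in 10-week mutants (adjusted p = 0.0759). Probe set 1448610_a_at ran from 1135.8 to 1456.2 in oculomotor nuclei and from 1258.5 to 1599.7 in spinal cords, with -0.24 ± 0.09 in 6-week mutants (adjusted p = 0.0595). Both differences were called after centring each array on its median, at 0.28 (adjusted p = 0.0452) and -0.30 (adjusted p = 0.0269), in opposite directions. The third, 1417194_at, ran from 207.2 to 396.8 in oculomotor nuclei and from 239.7 to 334.3 in spinal cords, and its mean regional difference was 0.00 ± 0.09 (95% confidence interval -0.19 to 0.20, adjusted p = 0.981). For the stronger probe sets the mean regional difference was 0.04 ± 0.06 (1417193_at, interval -0.08 to 0.16) and -0.10 ± 0.05 (1448610_a_at, interval -0.22 to 0.01).

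Catalase was lower in the oculomotor nucleus on its probe set 1416430_at. It had 776.6, 792.5 and 644.1 in 10-week mutant oculomotor nuclei, against 1094.8, 971.6 and 1175.2 in 10-week mutant spinal cords. In 6-week mutants the signals were 803.9, 911.4 and 907.9 in oculomotor nuclei, against 1312.6, 1373.3 and 1632.5 in spinal cords, and in controls 990.6, 879.8 and 1077.6, against 1474.7 and 1193.4. Within each condition the oculomotor arrays lay below the spinal cord arrays, although the 2 highest control oculomotor arrays exceeded the lowest 10-week mutant spinal cord array. The regional difference was -0.54 ± 0.12 in 10-week mutants (adjusted p = 0.00383), -0.70 ± 0.12 in 6-week mutants (adjusted p = 0.000319) and -0.43 ± 0.13 in controls (adjusted p = 0.0395). The mean over conditions was -0.56 ± 0.07, or 1.47-fold lower (adjusted p = 6.256e-06). The call in controls was lost without control oculomotor replicate 1 (adjusted p = 0.0799), control oculomotor replicate 2 (adjusted p = 0.145) or control spinal cord replicate 2 (-0.28, adjusted p = 0.411).

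The other catalase probe set, 1416429_a_at, was lower in the mutants and was not called in controls. It had 821.7, 999.6 and 611.3 in 10-week mutant oculomotor nuclei, against 1566, 1061.1 and 1199.9 in spinal cords, and 703.9, 726.7 and 902.6 in 6-week mutant oculomotor nuclei, against 1456.8, 1007 and 1588.4 in spinal cords. In controls it had 1069.5, 785.9 and 1275.4 in oculomotor nuclei, against 601.4 and 1016.1 in spinal cords, so the groups overlapped. The regional difference was -0.65 ± 0.22 in 10-week mutants (adjusted p = 0.0482), -0.76 ± 0.22 in 6-week mutants (adjusted p = 0.0181) and 0.38 ± 0.25 in controls (adjusted p = 0.356). The control value rests on 2 spinal cord arrays that differ widely: it was 0.01 (adjusted p = 0.993) without replicate 2 and 0.74 (adjusted p = 0.125) without replicate 3. Its mean over conditions was -0.34 ± 0.13 and was not called (adjusted p = 0.0505). The call in 10-week mutants was lost without their oculomotor replicate 1 or 3 or their spinal cord replicate 1 or 3 (adjusted p = 0.0749 to 0.204), after median centring (adjusted p = 0.0674), without a filter (adjusted p = 0.0845) or without a trend (adjusted p = 0.0641). The call in 6-week mutants was lost without their oculomotor replicate 1 or 2 or their spinal cord replicate 1 or 3 (adjusted p = 0.0574 to 0.0836).

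Among the glutathione peroxidases, the secreted enzyme Gpx3 had the largest regional difference of the 12 tested probe sets. Probe set 1449106_at had signals of 845.5, 1177.5 and 1216.5 in 10-week mutant oculomotor nuclei, against 678.2, 425.2 and 522.6 in 10-week mutant spinal cords. In 6-week mutants they were 925.5, 1004.5 and 824.1 in oculomotor nuclei, against 455.4, 431.1 and 398.1 in spinal cords, and in controls 1096.8, 1223.8 and 930.2, against 348.4 and 512.1. The lowest oculomotor array (824.1) was above the highest spinal cord array (678.2). The regional difference was 0.97 ± 0.17 in 10-week mutants (1.96-fold higher, adjusted p = 0.000506), 1.05 ± 0.17 in 6-week mutants (2.08-fold, adjusted p = 0.000189) and 1.30 ± 0.19 in controls (2.46-fold, adjusted p = 0.000121). The mean was 1.11 ± 0.10, or 2.15-fold (adjusted p = 9.035e-08). By mean signal, the groups ran from control oculomotor nuclei (1084 ± 147), 10-week mutant oculomotor nuclei (1080 ± 204) and 6-week mutant oculomotor nuclei (918 ± 90.4) to 10-week mutant spinal cords (542 ± 128), control spinal cords (430 ± 116, n = 2) and 6-week mutant spinal cords (428 ± 28.8), with n = 3 unless given. The 3 oculomotor groups lie above the 3 spinal cord groups, and neighbours within a region differed by less than their SD or were not called.

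Gpx1, the peroxidase of cytosol and mitochondria, was lower in the oculomotor nucleus by a smaller amount. Probe set 1460671_at had 1415.6, 1544.7 and 1267.6 in 10-week mutant oculomotor nuclei, against 1601.1, 1665.5 and 1736.4 in 10-week mutant spinal cords. In 6-week mutants it had 1236.2, 1352.9 and 1506.7 in oculomotor nuclei, against 1575, 2059.3 and 1685.6 in spinal cords, and in controls 1449.9, 1355.7 and 1504.3, against 1557.9 and 1966.3. The highest oculomotor array (1544.7) was below the lowest spinal cord array (1557.9), by a gap that is small beside the spread within either region. The regional difference was -0.24 ± 0.11 in 10-week mutants (adjusted p = 0.150), -0.37 ± 0.11 in 6-week mutants (adjusted p = 0.0264) and -0.28 ± 0.13 in controls (adjusted p = 0.165), and the mean was -0.30 ± 0.07, or 1.23-fold lower (adjusted p = 0.00221). The call in 6-week mutants was lost without their oculomotor replicate 1 (adjusted p = 0.101), their oculomotor replicate 2 (adjusted p = 0.0643) or their spinal cord replicate 2 (adjusted p = 0.141), after quantile normalization (adjusted p = 0.0502) and in a fit of only the arrays compared (adjusted p = 0.0636).

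Gpx4, which protects membrane lipids, was not called between regions on either probe set. Probe set 1451695_a_at ran from 2647.1 to 4507.7 in oculomotor nuclei and from 3424.3 to 4897.9 in spinal cords, with a mean regional difference of -0.10 ± 0.09 (interval -0.29 to 0.09, adjusted p = 0.396). Probe set 1456193_x_at, of a kind whose probes can also match other transcripts, ran from 1201 to 2041.7 in oculomotor nuclei and from 1430.2 to 2114.2 in spinal cords. Its mean regional difference was -0.09 ± 0.06 (interval -0.22 to 0.04, adjusted p = 0.277), and its largest was -0.32 ± 0.12 in controls (adjusted p = 0.0834), which was called without control spinal cord replicate 3 (-0.49, adjusted p = 0.0336).

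**Figure D2:**
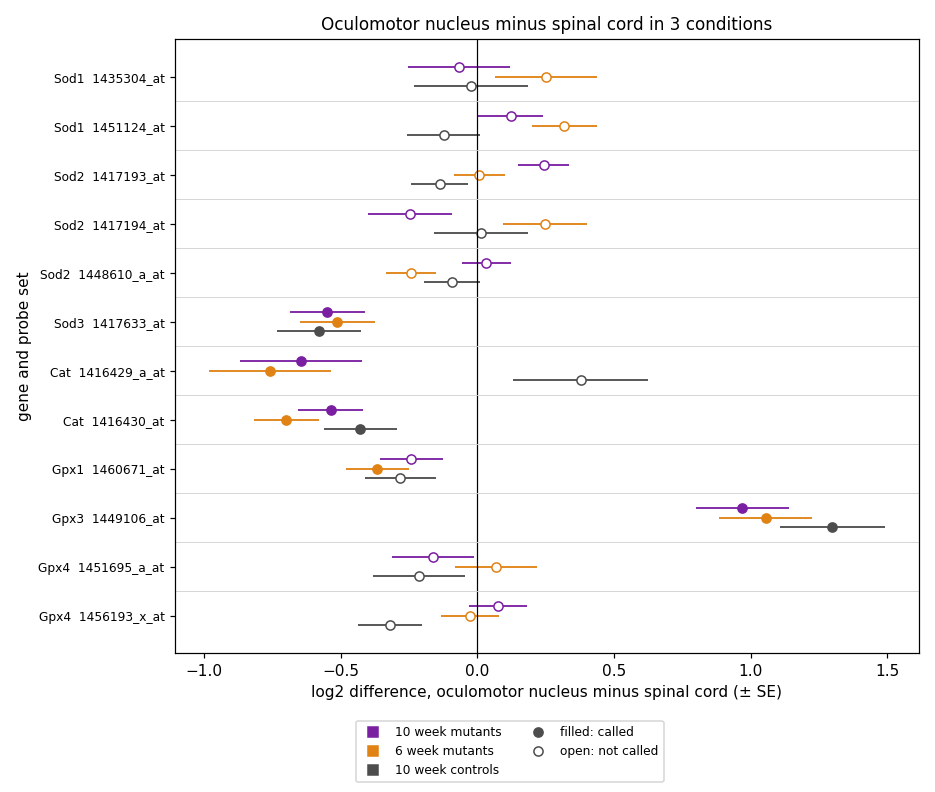
Log2 difference of the oculomotor nucleus minus the spinal cord for the 12 tested probe sets, with standard errors as bars, in 10-week mutants, 6-week mutants and controls; filled points are called. Gpx3 lies to the right in all 3 conditions, Sod3 and Cat 1416430_at to the left, and Cat 1416429_a_at lies to the left in both mutant ages and at 0.38, not called, in controls.

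The promoters of Gpx3, Cat and Gpx1, which were called between the regions in different directions, are shown for what their sequences hold. RefSeq's table for GRCm38.p6 held promoters for 6 of the 7 genes, Sod3 being the one not matched. Each run is the 250 bases before the gene's start, 5′ to 3′ on the gene's strand, with capitals for matches on either strand to any of 4 motifs. The GC box was searched as GGGCGG. The box named after its letters CCAAT was searched by those letters alone. The TATA box was searched as TATAAA. For the antioxidant response element the core TGACNNNGC was used. The windows are chr11:54902604-54902853 on the plus strand for Gpx3, chr2:103485154-103485403 on the minus strand for Cat and chr9:108338830-108339079 on the plus strand for Gpx1.
Gpx3: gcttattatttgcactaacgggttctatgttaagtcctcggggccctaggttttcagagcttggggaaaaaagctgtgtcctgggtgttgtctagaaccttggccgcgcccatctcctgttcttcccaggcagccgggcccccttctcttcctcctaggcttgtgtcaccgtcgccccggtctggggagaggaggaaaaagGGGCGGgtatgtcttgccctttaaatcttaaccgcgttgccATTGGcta
Cat: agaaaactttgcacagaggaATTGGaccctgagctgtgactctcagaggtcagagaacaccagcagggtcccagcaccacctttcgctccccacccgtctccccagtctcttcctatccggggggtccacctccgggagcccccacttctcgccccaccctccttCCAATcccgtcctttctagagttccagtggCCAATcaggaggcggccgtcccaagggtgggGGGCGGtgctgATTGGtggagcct
Gpx1: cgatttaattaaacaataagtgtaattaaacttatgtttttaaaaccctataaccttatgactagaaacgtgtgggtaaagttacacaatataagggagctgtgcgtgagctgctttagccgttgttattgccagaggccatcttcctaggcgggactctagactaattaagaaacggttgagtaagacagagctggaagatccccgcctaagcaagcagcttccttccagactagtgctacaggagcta
In Gpx3 a GC box began 49 bases and a CCAAT match 8 bases before the start. Cat held 4 CCAAT matches, at 230, 85, 55 and 13 bases before the start, and a GC box at 24 bases. Gpx1 held none of the 4 motifs in this window and had a GC content of 42%, against 55.2% for Gpx3 and 62% for Cat. The antioxidant response core, which the factor Nrf2 binds, was in none of these 3 windows, and in Sod1 it began 56 bases before the start. Among 32851 mouse promoters in windows of the same length, 32.7% held the GC box, 33.8% the CCAAT box, 12.4% the TATA box and 10.2% the antioxidant response core. No match of one motif overlapped a match of another in these 3 runs. A match is a description of letters and not evidence of binding.

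The counts over the 12 enzyme probe sets are given beside those of all tested probe sets. In 10-week mutants 4 of 12 were called, 1 higher and 3 lower, beside 19.3% of all tested probe sets (9.3% higher and 9.99% lower). In 6-week mutants it was 5 of 12, 1 higher and 4 lower, beside 23.9% (12.2% higher and 11.7% lower). In controls it was 3 of 12, 1 higher and 2 lower, beside 13.6% (6.62% higher and 6.94% lower). For the mean over conditions it was 4 of 12, 1 higher and 3 lower, beside 37.7% (20% higher and 17.7% lower), and the median difference was -0.10 for the 12 and 0.02 for all tested probe sets. Arrays of all conditions separated the regions completely for 3 of the 12, those of Gpx3, Sod3 and Gpx1, beside 8.77% of all tested probe sets. By the size of the mean regional difference, Gpx3 stood at the 98.7th percentile of tested probe sets, Cat 1416430_at at 92.0, Sod3 at 91.7, Cat 1416429_a_at at 79.6 and Gpx1 at 74.9, while the other 7 stood between 1.41 and 34.9.

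**Figure D3:**
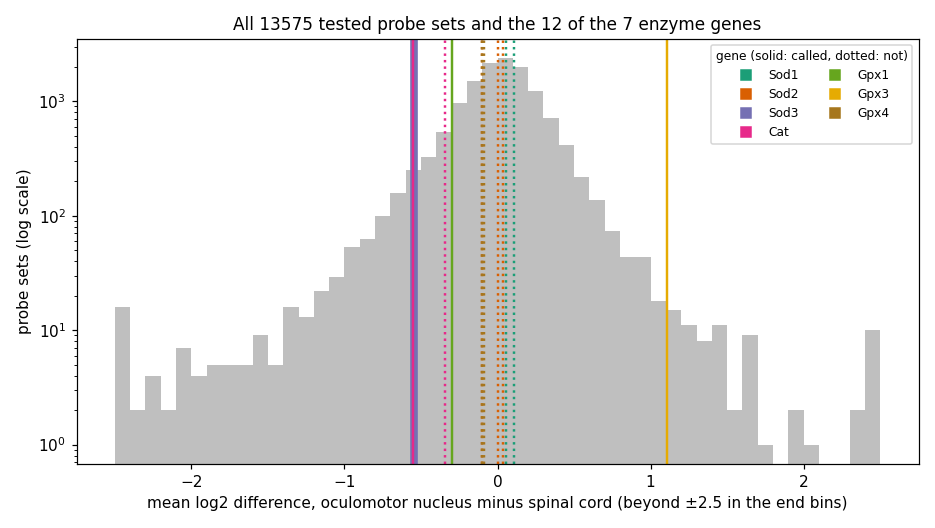
Mean log2 difference of the oculomotor nucleus minus the spinal cord for all 13575 tested probe sets (grey histogram, number of probe sets on a log axis, differences beyond the plotted range in the end bins), with the 12 probe sets of the enzyme genes as vertical lines, solid when called and dotted when not; the Sod3 line is drawn thicker because that of Cat 1416430_at lies on it. Gpx3 at 1.11 stands far to the right, Sod3 and Cat 1416430_at together at the left near -0.55, and most others close to 0.

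Between genotypes at 10 weeks, mutants minus controls, none of the 12 probe sets was called in limma's fit in either region. In the oculomotor nucleus 1.47% of all tested probe sets were called (200), and in the spinal cord 0.0221% (3). At an unadjusted p below 0.05 there were 3 of the 12 in each region, beside 2024 of all tested probe sets in the oculomotor nucleus (14.9%) and 1595 in the spinal cord (11.7%). The targeted gene is not named in the labels, so Sod1 is given only as a measurement of the mouse gene. All 3 mutant oculomotor nuclei (6889.8 to 7571.4) were above all 3 control oculomotor nuclei (5399.1 to 6661) on its probe set 1451124_at, with a difference of 0.25 ± 0.12 (interval -0.0015 to 0.50, adjusted p = 0.340). In the spinal cord the same probe set gave 0.00 ± 0.13 (interval -0.28 to 0.28, adjusted p = 0.992), and the difference between the regions in this effect was 0.24 ± 0.18 (adjusted p = 0.850). How often all tested probe sets separated a mutant from a control group completely was not counted.

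The smallest adjusted p among the enzymes for genotype was that of catalase in the oculomotor nucleus. On 1416430_at the 3 mutant nuclei (644.1 to 792.5) lay below the 3 control nuclei (879.8 to 1077.6), with -0.40 ± 0.12 (interval -0.65 to -0.15, adjusted p = 0.0973). The spinal cords had 971.6 to 1175.2 in mutants and 1193.4 and 1474.7 in controls, with -0.29 ± 0.13 (interval -0.58 to -0.01, adjusted p = 0.402), and the effects of the regions differed by -0.11 ± 0.18 (adjusted p = 0.934). The other catalase probe set, 1416429_a_at, gave -0.35 ± 0.22 in the oculomotor nucleus (adjusted p = 0.490) and 0.67 ± 0.25 in the spinal cord (adjusted p = 0.315), so the probe sets had opposite signs in the spinal cord. Beside these values, the summed signal of 9 oligodendrocyte markers was 45760.3 to 51310.6 in mutant oculomotor nuclei and 36653.2 to 40063.8 in control ones, with 1 of the 9 called higher (Cnp, 0.52). The brightest markers weigh most in such a sum, as Mbp, at 14204.4 to 16929.2 in mutants against 10209.8 to 10727.3 in controls. Gjb1 went the other way, at 415.6 to 481.6 against 537.9 to 588.1, and Mog, Cldn11 and Ugt8a overlapped. The summed signal of the 12 microglial markers was 5103.5 to 5326.9 in mutant and 4706.4 to 4919.2 in control oculomotor nuclei. Of the 9 of them tested 1 was called higher (Cx3cr1, 1.02, adjusted p = 0.00327), at 605 to 705.9 against 253.8 to 360.4. Others went the other way without overlap: P2ry12 was at 381.4 to 428.6 in mutants against 456 to 534.5 in controls. Tyrobp was at 238.3 to 289.1 against 290 to 329.3, so the sum does not stand for every marker. The part of these lists in the catalase values was not tested.

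Gpx4 probe set 1456193_x_at came next. It had 1713.9, 1749.3 and 1678.4 in mutant oculomotor nuclei, against 1436.6, 1406.2 and 1201 in control oculomotor nuclei, with 0.35 ± 0.11 (interval 0.12 to 0.57, adjusted p = 0.106). The other Gpx4 probe set gave -0.11 ± 0.15 there (adjusted p = 0.802), the opposite sign. For Gpx3 the genotype difference was -0.01 ± 0.17 in the oculomotor nucleus (interval -0.37 to 0.34, adjusted p = 0.985) and 0.32 ± 0.19 in the spinal cord (interval -0.08 to 0.72, adjusted p = 0.533). For Sod3 it was -0.09 ± 0.14 in the oculomotor nucleus (adjusted p = 0.820) and -0.12 ± 0.15 in the spinal cord (adjusted p = 0.821), and for Gpx1 -0.03 ± 0.11 (adjusted p = 0.941) and -0.07 ± 0.13 (adjusted p = 0.881). Sod2 probe set 1417193_at gave 0.14 ± 0.09 in the oculomotor nucleus (adjusted p = 0.515) and -0.24 ± 0.10 in the spinal cord (adjusted p = 0.381). The genotype effect differed between regions for 0 of the 12, where 0% of all tested probe sets was called, and the smallest adjusted p was 0.734. At an unadjusted p below 0.05 there were 3 of the 12, beside 835 of all tested probe sets (6.15%).

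Between ages in mutants, 10 weeks minus 6 weeks, none of the 12 was called in limma's fit. The oculomotor nucleus had 0.0221% of all tested probe sets called (3) and the spinal cord 2.76% (374). At an unadjusted p below 0.05 there was 1 of the 12 in the oculomotor nucleus, beside 1197 of all tested probe sets (8.82%), and 2 in the spinal cord, beside 2737 (20.2%). Catalase probe set 1416430_at again had the smallest adjusted p of the 12 in the spinal cord. Its 3 spinal cords of 10 weeks (971.6 to 1175.2) lay below the 3 of 6 weeks (1312.6 to 1632.5), with -0.40 ± 0.12 (interval -0.66 to -0.15, adjusted p = 0.0772), and it was called when each array was centred on its median (-0.48, adjusted p = 0.0440). The 3 oculomotor nuclei of 10 weeks (644.1 to 792.5) also lay below the 3 of 6 weeks (803.9 to 911.4), with -0.24 ± 0.12 (interval -0.49 to 0.01, adjusted p = 0.583). Beside the oculomotor values, the summed signal of the oligodendrocyte markers was 45760.3 to 51310.6 at 10 weeks and 62258.5 to 63700.7 at 6 weeks, with a median difference of -0.38 and 0 of 9 called. Gjb1 did not move with that sum, at 415.6 to 481.6 at 10 weeks and 383.3 to 487 at 6 weeks. The summed signal of 9 markers of meninges and fibroblasts moved with the spinal cord values, at 5568.3 to 7803 at 10 weeks and 9724.2 to 10825.9 at 6 weeks, and 4 of these 9 genes were called lower. That of 7 smooth muscle and pericyte markers was 2760 to 3574.4 at 10 weeks and 4210.7 to 5125 at 6 weeks, with Acta2 (-1.01) and Tagln (-0.73) called lower of 5 tested. Rgs5 and Acta2, the brightest, weigh most in that sum. Cspg4 overlapped, at 259.7 to 303.4 against 253.7 to 287.9. Cnn1, dim on every array, went the other way, at 21.3 to 66.3 at 10 weeks against 7.2 to 18.7 at 6 weeks. The part of these lists in the catalase values was not tested.

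Gpx3 gave 0.22 ± 0.17 between ages in the oculomotor nucleus (adjusted p = 0.753) and 0.30 ± 0.17 in the spinal cord (adjusted p = 0.334). Gpx4 probe set 1456193_x_at gave -0.17 ± 0.11 in the oculomotor nucleus (adjusted p = 0.672) and -0.27 ± 0.11 in the spinal cord (adjusted p = 0.164). Sod2 probe set 1417194_at had 207.2 to 265 in oculomotor nuclei of 10 weeks and 265.6 to 337.2 in those of 6 weeks, with -0.34 ± 0.15 (adjusted p = 0.534). Sod3 differences were -0.18 ± 0.14 in the oculomotor nucleus (adjusted p = 0.739) and -0.15 ± 0.14 in the spinal cord (adjusted p = 0.583). The age effect differed between regions for 0 of the 12, beside 0.368% of all tested probe sets, and at an unadjusted p below 0.05 for 2 of the 12, beside 2182 of all tested probe sets (16.1%). The genotype and age comparisons share the 10-week mutant arrays, so values of a probe set in both are not independent.

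**Figure D4:**
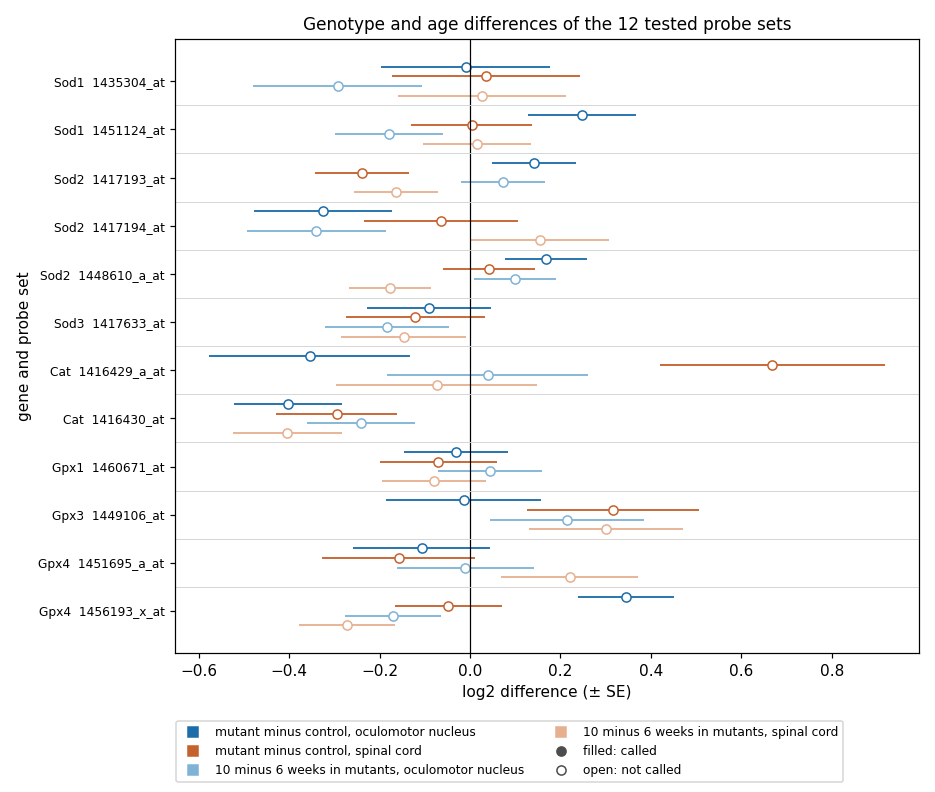
Log2 differences with standard errors for the 12 tested probe sets, mutant minus control and 10 minus 6 weeks, in each region. All points are open, since none was called; Cat 1416430_at lies to the left of 0 in all 4 comparisons.

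Genes that supply or surround these enzymes came from 9 lists with 116 genes, of which 75 were tested. For the mean regional difference 13 were called higher and 20 lower, together 44%, beside 38.9% of the 8072 genes tested. In the single conditions 3 were higher and 10 lower in 10-week mutants (17.3%, beside 20.6% of all genes tested), 3 and 11 in 6-week mutants (18.7%, beside 25%), and 1 and 7 in controls (10.7%, beside 15%). Nfe2l2, which encodes the Nrf2 factor that drives many antioxidant genes, was lower in the oculomotor nucleus by -0.67 ± 0.06 (adjusted p = 1.058e-07), and was called lower in 10-week mutants (-0.58), 6-week mutants (-0.70) and controls (-0.74). Of the other genes of its pathway, the target Nqo1 was lower (-0.34), as was the repressor Bach1 (-0.16), while the partner Mafg (0.35) and the receptor Sqstm1 (0.19) were higher, and Keap1 was not called (0.05). Of 16 peroxisome genes, where catalase resides, 2 were higher and 5 lower. Hsd17b4 (-0.39) and Scp2 (-0.30), both of peroxisomal lipid oxidation, were called lower in all 3 conditions, whereas the import receptor Pex5 was higher (0.24).

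The suppliers of the glutathione peroxidases did not move one way. Of 11 genes of selenium supply and selenoproteins, 3 were higher and 3 lower. The selenium carrier Selenop (-0.23) was among the lower ones and Sephs2 (0.29), which makes the selenium donor, among the higher ones. Glutathione synthase Gss was lower (-0.21) and Gclc (0.08), Gclm (-0.10) and the reductase Gsr (-0.07) were not called. Of 14 glutathione transferases 2 were higher and 4 lower, with Gstm7 at -0.73 ± 0.07 (adjusted p = 1.156e-07). The copper chaperone of Sod1, Ccs, was not called (-0.17, adjusted p = 0.104), and Atox1, which passes copper to transporters, was lower (-0.26). Of 8 thioredoxin and glutaredoxin genes Srxn1 (0.30) and Txn1 (0.14) were higher and Glrx (-0.24) was lower. None of the 3 tested peroxiredoxins was called, and of 3 genes of superoxide and peroxide sources Dao (-0.80) and Rac2 (-0.35) were lower.

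In the other comparisons the shares called of the 75 genes are given beside those of all genes tested. Between genotypes they were 1.33% in the oculomotor nucleus, beside 1.03%, and 0% in the spinal cord, beside 0.0248%. Between ages they were 0% in the oculomotor nucleus, beside 0.0372%, and 2.67% in the spinal cord, beside 2.66%. For the age effect differing between regions the share was 1.33%, beside 0.409%. Between genotypes Gclc, the catalytic subunit of the first enzyme of glutathione synthesis, was higher in mutant oculomotor nuclei than in control ones by 0.67 ± 0.13 (adjusted p = 0.0116), and none was called in the spinal cord. Between ages Sqstm1, an autophagy receptor that also binds Keap1, was higher at 10 than at 6 weeks in mutant spinal cords by 0.53 ± 0.08 (adjusted p = 0.00288), and its age effect differed between regions by -0.53 ± 0.11 (adjusted p = 0.0459). Srxn1, which repairs oxidised peroxiredoxins, was higher at 10 weeks in spinal cords by 0.48 ± 0.10 (adjusted p = 0.0217).

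Cell type markers also differed between the regions. All 9 tested markers of meninges and fibroblasts were called lower in the oculomotor nucleus, with a median of -1.38, and their summed signal was 2403.5 to 3367 there and 5568.3 to 10825.9 in the spinal cord. Of 9 microglial markers 8 were lower (summed 4706.4 to 5535 and 6483.5 to 9863.5), of 9 oligodendrocyte markers 9 (36653.2 to 63700.7 and 56844.2 to 74733.1), and of 10 astrocyte markers 5 were lower and 1 higher (15218.2 to 17037.9 and 24494.3 to 28472.3). Gfap had the widest gap in the astrocyte sums, at 1125.9 to 2548.5 in oculomotor nuclei and 7480.7 to 11155.7 in spinal cords. Slc1a3 went the other way, at 554.4 to 1091.8 and 368 to 483.3. Aldh1l1, Sox9 and Slc4a4 were among those that overlapped, so the astrocyte sum does not stand for every marker. The neuronal markers were 4 higher and 3 lower of 10, with a median of 0.06, and 2 of 10 endothelial markers were lower. Their part in the lower Sod3, Cat and Gpx1 and the higher Gpx3 signals was not tested.

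Other markers bear on what the dissected tissue held. The acetylcholine transporter Slc18a3 of motor neurons was at 204.1 to 388.9 in oculomotor nuclei and 977.3 to 1263.1 in spinal cords, and Phox2a, a defining factor of oculomotor neurons, was at 33.4 to 69.7 in oculomotor nuclei and 38.5 to 84.6 in spinal cords. Phox2a was dim on every array and fell below the filter on low signals, so it could not set the oculomotor tissue apart here. The spinal gene Hoxc8 was at 1 to 47.8 in oculomotor nuclei and 1315 to 2085.3 in spinal cords. Of 5 red cell genes, only the heme enzyme Alas2 passed the filter, at 82 to 745 in oculomotor nuclei and 323.2 to 2042.9 in spinal cords. The other 4 were dim and had higher medians in oculomotor nuclei than in spinal cords: Hba-a1 59.7 against 54.7, Hba-a2 57.3 against 50.9, Hbb-b2 144.4 against 98.8 and Slc4a1 56.3 against 41.5. The pituitary hormone genes Gh and Prl were highest on 10-week mutant oculomotor replicate 2 and control oculomotor replicate 3. Gh was at 13207 and 2933.8 there, and Prl at 2209.1 and 3007.7. Pomc (6756.4) and Cga (1134.1) were highest on the mutant array alone. On control oculomotor replicate 3 they were at 260 and 103.2, below 381.8 and 185.9 on control oculomotor replicate 2. Pituitary hormone signals were not confined to these arrays. Gh was at 1045.1 on 6-week mutant oculomotor replicate 1 and 773.3 on control oculomotor replicate 2, against at most 144.8 in spinal cords. The summed signal of 8 pituitary genes was 712.8 to 23825.8 in oculomotor nuclei and 575.6 to 680 in spinal cords. The choroid plexus gene Ttr was at 6884.3 and 2147.7 on control oculomotor replicates 1 and 2, against at most 197.1 on every other array. Its signal was at least 85.6 on every oculomotor array and at most 51.6 on every spinal cord array. Leaving out control oculomotor replicate 1 or 2 alone, Gpx3 was called in controls (1.29, adjusted p = 0.000712, and 1.21, adjusted p = 0.000944). Each of these fits kept the other array of high Ttr, so they cannot tell what choroid plexus tissue adds to the Gpx3 signal. Without both arrays of the highest Gh and Prl signals Gpx3 was called in 10-week mutants (0.90, adjusted p = 0.00439) and controls (1.40, adjusted p = 0.000296). The control oculomotor arrays kept in that fit were replicates 1 and 2, both of high Ttr, so it too cannot tell what choroid plexus tissue adds. The part of pituitary or choroid plexus tissue in the Gpx3 signals was not tested.

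**Figure D5:**
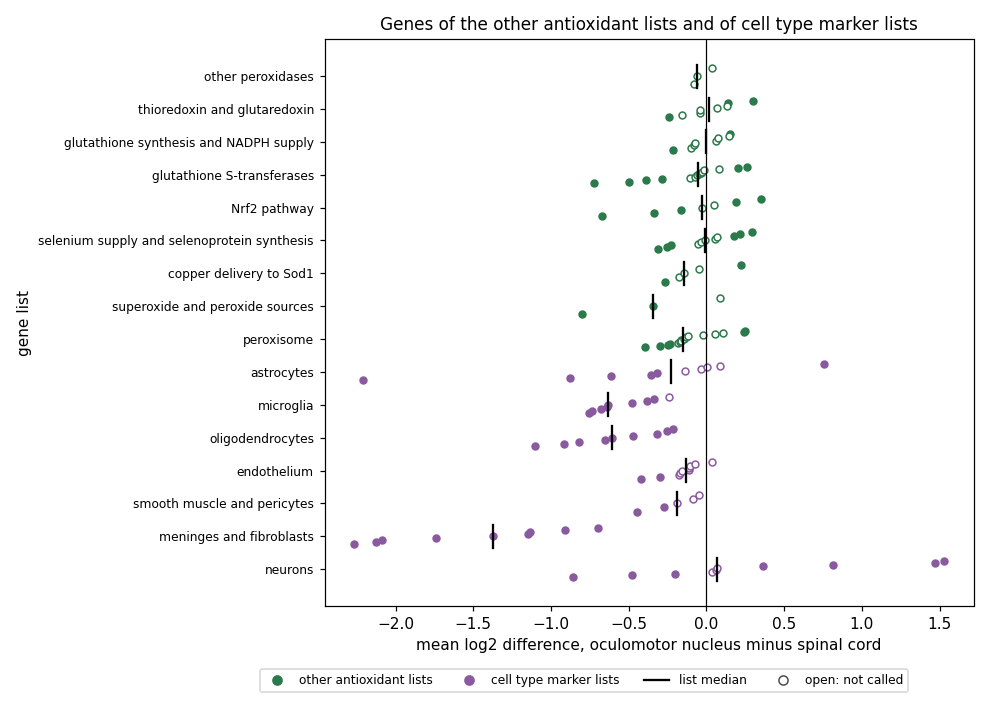
Mean log2 difference of the oculomotor nucleus minus the spinal cord for each tested gene (points, filled when called) of the 9 antioxidant lists and of 7 cell type marker lists, with a bar at each list's median. All meningeal, oligodendrocyte and most microglial markers lie below 0, and the antioxidant lists have medians near 0 except the small list of superoxide and peroxide sources.

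The genes most like each enzyme over the 17 arrays were taken by Pearson's correlation of log2 signals. For Gpx3 they were Usp11 (0.956), Nnat (0.956) and Syt13 (0.954), and for Sod3 S100a16 (0.937), Col1a2 (0.925) and Adipor1 (0.923). For Cat 1416430_at they were 1810058I24Rik (0.900), Tshz1 (0.895) and Kcnk1 (0.891), and for Gpx1 Npy5r (0.920), Pdk3 (0.875) and Aff1 (0.874). The points share the 2 regions, and within them the coefficients were lower: for Gpx3 and Usp11 they were 0.703 over the 9 oculomotor arrays and 0.631 over the 8 spinal cord arrays, and for Sod3 and Col1a2, a collagen of fibroblasts, 0.775 and 0.667.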

How the data were processed

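Biotin-labelled RNA of each sample was read on 430A mouse arrays of Affymetrix, per the labels. The authors deposited intensity signals from Microarray Suite 5.0, per the series' design text; all were positive and linear, and the 2% trimmed mean of each array was 500.13 to 500.16. Their present and absent calls were not used here.

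After removal of 64 control probe sets, 25 was added to each signal and log2 taken, and arrays were not normalized again. A filter then removed the dimmest 40% by mean (limit 7.38), leaving 13575. Of 22626 probe sets 20380 had 1 symbol, 691 several and 1555 none; symbols were updated through gene identifiers for 20351. The fit, by limma 3.58.1 under R 4.3.3, held 6 group means (eBayes with a trend, residual degrees of freedom 11). Benjamini-Hochberg adjustment was made over all tested probe sets, separately for 10 contrasts. The mean regional difference weights the 3 conditions equally. For a gene of a list, the probe set of highest mean signal was used. Control spinal cord replicate 1 was left out. The members, lists, tests and alternatives were chosen with earlier results of these data known. Every probe set of the 7 genes is named; of the lists, those with the smallest p or a direct role; and for each enzyme called in the mean, the 3 genes most like it. Alternatives were quantile normalization, median centring, a floor, an offset of 100, no filter, a filter of 60%, no trend, a fit of only the arrays compared, a replicate block, a rule of the submitters' kind, all 18 arrays, omission of both arrays with high pituitary hormone signals, and of each array. The steps were tested on simulated data.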

Additional observations from a re-analysis of the deposited data

How the results depend on the processing

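Gpx3 was called in each of the 3 conditions under every alternative that left control spinal cord replicate 1 out, apart from the rule of the submitters' kind (all pairs of arrays differing the same way, with over 2-fold on average); that rule took Gpx3 alone in 6-week mutants and in controls (1 probe set each) and 0 in 10-week mutants. With all 18 arrays, 0 of the 12 probe sets were called in any single condition and 1 (Gpx3) in the mean, and in controls Sod3 turned to 0.42 (adjusted p = 0.557) and Cat 1416430_at to 0.69 (adjusted p = 0.391). Leaving out 1 array at a time gave 2 to 4 calls in 10-week mutants (2 without their oculomotor replicate 1), 3 to 5 in 6-week mutants (3 without their oculomotor replicate 2), 1 to 3 in controls (1 without control oculomotor replicate 1 or control spinal cord replicate 2) and 4 to 5 in the mean. Genotype and age gave 0 calls under each alternative except median centring, which gave 1 in the spinal cord between ages, Cat 1416430_at. Cat 1416430_at in controls was also not called without a filter (adjusted p = 0.0559), without a trend (adjusted p = 0.0536) or with the arrays of that contrast alone (adjusted p = 0.0592). Cat 1416429_a_at was called in the mean in 12 of the alternatives. Of the 120 values, 57 that were not called changed sign under some alternative, the largest of them 0.39 in size. That count includes the fit of all 18 arrays, which holds the array set aside. Same-numbered arrays had a median correlation of deviations of 0.0217 (range -0.102 to 0.130), against -0.0194 (range -0.156 to 0.156) for arrays of different numbers. It was over 0.1 in 6 of 40 and 2 of 80 pairs. The numbers are not stated to pair arrays and were not taken as pairs. With the replicate block 4, 5, 2 and 5 probe sets were called in 10-week mutants, 6-week mutants, controls and the mean (Cat 1416430_at in controls adjusted p = 0.0676), and 0 elsewhere. The number of arrays limits what could be called.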
